A study of Mus musculus with 3 samples.

Results

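The Toll-like receptors are a family of membrane proteins with which innate immune cells recognise parts of microbes. The 10 family genes described here were found by gene symbol among 55536 annotated genes. They comprise 5 genes whose products work at the cell surface (Tlr1, Tlr2, Tlr4, Tlr5 and Tlr6) and 5 whose products work in endosomes (Tlr3, Tlr7, Tlr8, Tlr9 and Tlr13). All were measured in macrophages derived from bone marrow of the mouse strain C57BL/6J and treated with Lipid A, the membrane anchor of bacterial endotoxin. The series holds a single group of 3 libraries from the cytosolic fraction. Each culture had 12 h of Lipid A at 100 ng/ml, then 12 h without it, and then a second exposure at 100 ng/ml lasting 10 min. The RNA was total RNA after ribosomal depletion. The labels number the libraries as biological replicates 1, 2 and 3 and give them 1 donor identifier. The p-values below therefore concern these libraries alone, and differences between the libraries may be technical. Age and sex were not collected, per the labels. With 1 group there is no untreated or singly treated control, and the levels describe restimulated cells alone.

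Each receptor has a horseshoe of leucine-rich repeats that meets the ligand, 1 membrane span and a cytosolic TIR domain that recruits adaptors. Surface members read lipids and proteins of the microbial envelope or flagellum, and endosomal members read nucleic acids released from engulfed microbes or dying cells. Macrophages use both classes. Lipid A itself is the ligand of Tlr4, which pairs with the protein encoded by Ly96.

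A short stretch of the TIR domain, often called box 2, differs between Tlr3 and the other members and is shown because that loop contacts the adaptors. The coding sequences below are from GENCODE release M21 on mm10, read 5′ to 3′, 42 bases each, and the capitals mark the fifth codon of the box.
Tlr1: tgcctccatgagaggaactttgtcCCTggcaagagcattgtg
Tlr2: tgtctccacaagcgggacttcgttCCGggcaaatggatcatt
Tlr4: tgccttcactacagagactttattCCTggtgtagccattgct
Tlr5: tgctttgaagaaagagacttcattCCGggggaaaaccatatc
Tlr6: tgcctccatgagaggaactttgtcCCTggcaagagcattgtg
Tlr3: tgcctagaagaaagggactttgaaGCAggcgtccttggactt
Tlr7: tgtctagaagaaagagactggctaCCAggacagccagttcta
Tlr8: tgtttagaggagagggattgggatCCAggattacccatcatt
Tlr9: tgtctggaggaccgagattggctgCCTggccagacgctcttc
Tlr13: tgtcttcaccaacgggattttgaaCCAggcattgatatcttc
The capitals spell a proline codon in 9 members and the alanine codon GCA in Tlr3, the one mouse family member known to signal through the adaptor Ticam1 without Myd88. The Tlr1 and Tlr6 windows are identical letter for letter. They cover coding bases 2008 to 2049 of Tlr1 and 2047 to 2088 of Tlr6.

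All but 1 of the 10 receptor mRNAs were present in the cytosol of these macrophages. At or above 1 TPM (a level scaled for transcript length and to a fixed library total) in every library stood 9 of 10 members, against 41.4% of 22015 nuclear protein-coding genes. Tlr5 was the exception. The libraries held 32108408, 53165872 and 57117456 expected counts, in the order of replicates 1 to 3. Replicate 1 stood apart. Nuclear-encoded protein-coding genes took 34.3% of its TPM, against 27.8% in each of replicates 2 and 3, and 6 of 8 nuclear-retained long noncoding RNAs were above the filter on low counts, all 6 higher in it. Malat1, the highest of them, had 1333 TPM in replicate 1 against 118 and 152 TPM in replicates 2 and 3. Neat1 had 66.01 TPM in replicate 1 against 13.9 and 17.6 TPM, and Xist 32.6 against 0.42 and 0.35 TPM. The part of this difference in the receptor values was not tested. The ratio of surface over endosomal TPM and the main counts of members are therefore also given without replicate 1. Means of single genes and of transcript shares include replicate 1.

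The macrophage label was matched by the markers. All 8 macrophage genes were above 1 TPM in every library, with summed levels of 4401 to 5256 TPM and Lyz2, Cd68 and Adgre1 highest. Summed levels over the libraries ran from 0.02 to 0.1 TPM for 4 B cell genes, 0 to 0.01 TPM for 4 T and NK cell genes, 0.15 to 0.57 TPM for 4 plasmacytoid dendritic cell genes and 0.2 to 0.46 TPM for 5 conventional dendritic cell genes. Fibroblast genes summed to 0.03 to 0.11 TPM over 4 genes, and 5 neutrophil genes to 2.66 to 3.44 TPM, mostly from Mmp8 at 2.48 ± 0.493 TPM (SD, n = 3). Cd3e, Nkg7, Klrb1c, Klk1, Cd209a, Ly6g and Retnlg were listed at 0 TPM in every library, and 3 counts would make at most 0.184 TPM for any of these genes (counting error only). Markers of B cells and plasmacytoid dendritic cells, which are known for high Tlr7 and Tlr9, were thus near 0.

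Among the surface receptors Tlr1 was the highest and Tlr5 was nearly silent. Tlr1 (ENSMUSG00000044827.10, chr5:64924679-64933563, minus strand), whose product joins Tlr2 to bind triacylated lipopeptides, had 82.99, 43.3 and 57.0 TPM in replicates 1, 2 and 3, a mean of 61.1 ± 20.2 TPM (SD, n = 3, as for every mean below). Tlr2 (ENSMUSG00000027995.10, chr3:83836272-83841767, minus strand), the common partner of Tlr1 and Tlr6, had 31.5, 28.5 and 30.99 TPM. On the TPM scale replicate 2 was lowest for both genes. With TPM rescaled to nuclear protein-coding genes, Tlr2 had 91.8, 103 and 112 in replicates 1, 2 and 3, so replicate 1 was lowest. The coefficient of variation was 33.0% for Tlr1 and 5.23% for Tlr2, the smallest of the 10 members on the TPM scale. Tlr6 (ENSMUSG00000051498.6, chr5:64952031-64960097, minus strand), which joins Tlr2 to bind diacylated lipopeptides, had 13.7, 9.91 and 9.59 TPM. Replicate 1 lay above the other two libraries and replicates 2 and 3 nearly coincided. The ratio of TPM between the 2 partners of Tlr2, Tlr1 over Tlr6, was 6.08, 4.37 and 5.94 in replicates 1, 2 and 3. Against Tlr2 itself, Tlr1 stood at 2.63, 1.52 and 1.84 times its TPM and Tlr6 at 0.433, 0.347 and 0.309 times.

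Tlr4 (ENSMUSG00000039005.13, chr4:66827584-66930284, plus strand), the receptor for the Lipid A given to these cells, had 32.8, 23.1 and 23.7 TPM, a mean of 26.6 ± 5.43 TPM. Its level was close to that of Tlr2, with a Tlr4 over Tlr2 ratio of 1.04, 0.81 and 0.766, so the order of the pair turned between replicate 1 and the other libraries. Tlr5 (ENSMUSG00000079164.8, chr1:182954788-182976044, plus strand), the flagellin receptor, had 0.04, 0.11 and 0.07 TPM from 5, 32 and 12 expected counts. In replicate 1 a level of 0.024 TPM corresponds to 3 counts, so Tlr5 lay just above the limit that a count of 0 allows in that library. Replicate 2 was the highest library for this gene, unlike for the other members.

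The endosomal receptors were led by Tlr7, and 4 of the 5 stood above 50 TPM on average. Tlr7 (ENSMUSG00000044583.13, chrX:167304929-167330558, minus strand), a sensor of single-stranded RNA and guanosine, had 99.4, 65.6 and 60.1 TPM, a mean of 75.1 ± 21.3 TPM, and ranked first in the family in each library. Its neighbour Tlr8 (ENSMUSG00000040522.5, chrX:167242696-167264329, minus strand), known in human cells as a sensor of RNA breakdown products, had 80.6, 52.7 and 55.1 TPM, a mean of 62.8 ± 15.5 TPM. Its rank in the family was 3 in each library. Tlr13 (ENSMUSG00000033777.4, chrX:106143204-106160493, plus strand), a mouse receptor for bacterial 23S ribosomal RNA that humans lack, had 73.0, 56.03 and 50.8 TPM, a mean of 59.95 ± 11.6 TPM. Tlr9 (ENSMUSG00000045322.10, chr9:106222598-106226883, plus strand), the receptor for unmethylated CpG DNA, had 78.8, 35.1 and 48.5 TPM, a mean of 54.1 ± 22.4 TPM. Replicate 1 was the highest library for each of these 4 genes. Tlr3 (ENSMUSG00000031639.12, chr8:45395665-45411080, minus strand), the receptor for double-stranded RNA, was the lowest endosomal member at 37.2, 17.2 and 18.5 TPM. Its coefficient of variation of 46.1% was the largest among the 9 members above 1 TPM, and replicates 2 and 3 lay close together. The 3 X-linked members Tlr7, Tlr8 and Tlr13 supplied 47.8%, 52.6% and 46.9% of the summed TPM of the family in replicates 1, 2 and 3. Tlr11 and Tlr12, the remaining mouse receptors and sensors of the protozoan protein profilin, stayed under 1 TPM in every library, Tlr11 at 0.64, 0.23 and 0.23 TPM and Tlr12 at 0.47, 0.28 and 0.13 TPM.

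**Figure D1:**
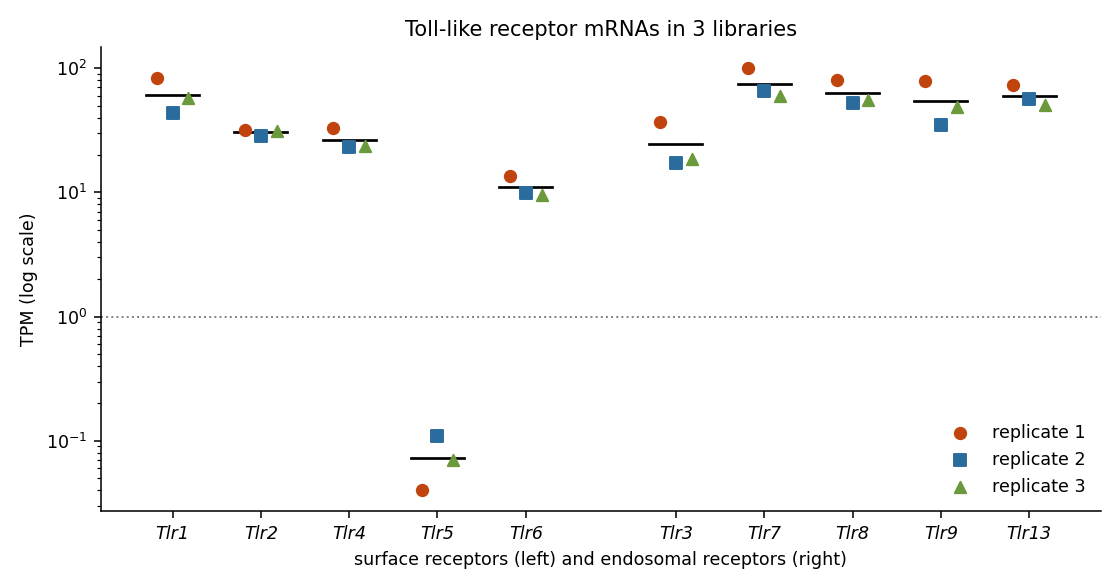
TPM (log scale) of the 10 receptor genes, with 1 symbol for each library, a black bar at the mean of the 3 libraries and a dotted line at 1 TPM; surface receptors are on the left and endosomal receptors on the right. Tlr5 alone lies under the line, at 0.04 to 0.11 TPM, and Tlr7 is the highest gene in each library.

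By mean TPM the order was Tlr7, Tlr8, Tlr1, Tlr13, Tlr9, Tlr2, Tlr4, Tlr3, Tlr6 and Tlr5. Neighbours in this order were called separated where all 3 libraries gave the same order and the mean log2 difference (pseudocount 0.1) exceeded 2 SD. Of 9 neighbouring pairs 3 were separated, Tlr7 above Tlr8 (log2 difference 0.25 ± 0.11), Tlr3 above Tlr6 (1.06 ± 0.34) and Tlr6 above Tlr5 (6.01 ± 0.54). Tlr8 and Tlr1, Tlr1 and Tlr13, Tlr13 and Tlr9, Tlr2 and Tlr4, and Tlr4 and Tlr3 each changed places in at least 1 library. Tlr9 was above Tlr2 in 3 of 3 libraries, but the difference of 0.75 ± 0.52 did not reach 2 SD. Among the 5 highest members 2 of 10 pairs were separated, Tlr7 above Tlr8 and Tlr7 above Tlr13, and among Tlr2, Tlr4 and Tlr3 none of 3 pairs. Between the 5 highest members and Tlr2, Tlr4 and Tlr3, 14 of 15 pairs were separated, the pair of Tlr9 and Tlr2 being the exception. This grouping was read from the levels themselves and is a description.

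Surface receptor mRNAs were together less abundant than endosomal ones. The 5 surface genes summed to 161, 105 and 121 TPM, a mean of 129 ± 28.8 TPM, and the 5 endosomal genes to 369, 227 and 233 TPM, a mean of 276 ± 80.5 TPM. Every surface sum lay below every endosomal sum. The ratio of surface over endosomal TPM was 0.436, 0.463 and 0.521 in replicates 1, 2 and 3, a mean log2 ratio of -1.08 ± 0.13. The two-sided exact sign-flip test over the libraries gave p = 0.25, the smallest value 3 libraries allow, so this design cannot pass a threshold of 0.05. Surface genes supplied 32.1 ± 1.97% of the summed TPM of the family and endosomal genes 67.9 ± 1.97%. Without replicate 1 the log2 ratio was -1.03. Tlr1 alone carried about as much TPM as Tlr13, so the class difference does not hold gene by gene, and Tlr3 lay below Tlr1 and, in replicates 2 and 3, below Tlr2 and Tlr4. In bulk RNA, fewer cells with a receptor and less RNA per cell cannot be told apart.

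**Figure D2:**
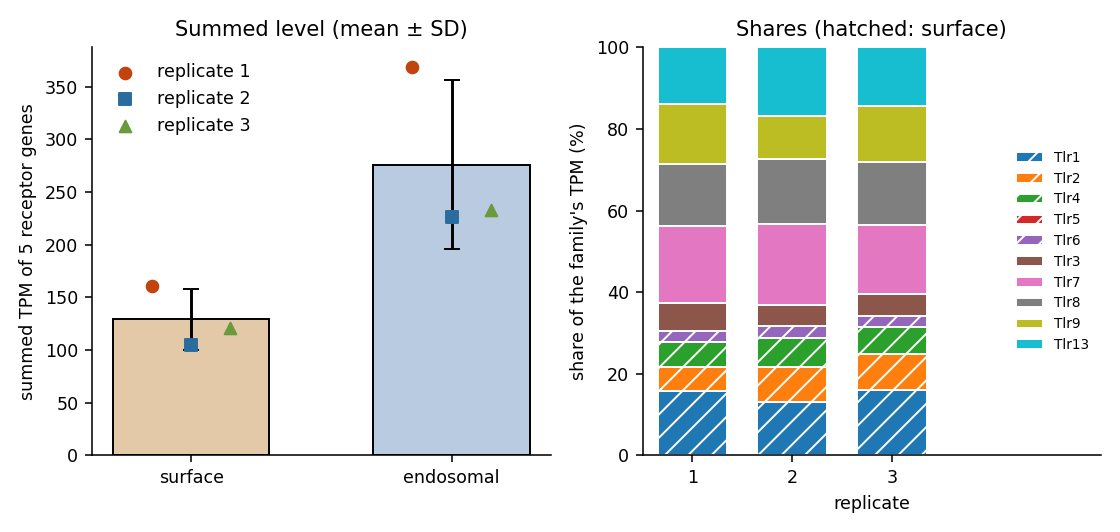
Left, summed TPM of the 5 surface and 5 endosomal receptor genes, with bars at the mean, error bars of 1 SD over 3 libraries and 1 symbol for each library. Right, the share of each gene in the family's TPM by library, surface genes hatched, which together take 30.4%, 31.7% and 34.3% in replicates 1, 2 and 3.

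Tlr1 and Tlr6 lie side by side on chromosome 5, 18467 bases apart, and are the one pair of members whose reads could be confused. Their coding sequences were 74.4% identical over 2371 aligned bases, and the next most alike pair, Tlr3 and Tlr8, 56.7%. Of 31-base words in the transcripts, 18.3% of those of Tlr1 and 16.4% of those of Tlr6 occur in both genes, and no other pair of members shared any. The longest shared run is 229 bases, coding bases 1468 to 1696 of Tlr1 and 1507 to 1735 of Tlr6. It is printed from Tlr1 (GENCODE M21), because reads inside it fit both genes equally, with the shared run in capitals and 10 bases on either side in lower case.
Tlr1 and Tlr6 shared run: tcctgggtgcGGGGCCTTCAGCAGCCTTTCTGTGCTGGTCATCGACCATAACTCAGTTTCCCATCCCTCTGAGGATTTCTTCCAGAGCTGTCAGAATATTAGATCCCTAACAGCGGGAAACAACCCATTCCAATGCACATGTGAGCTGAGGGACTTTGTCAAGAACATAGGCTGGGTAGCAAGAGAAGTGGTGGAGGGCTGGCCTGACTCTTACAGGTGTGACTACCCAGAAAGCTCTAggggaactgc
Only these 2 members had fractional counts, as estimates that divide shared reads give. Tlr1 had 9478, 10224 and 15153 expected counts and Tlr6 1454, 2054 and 2286, and the sum of the pair was a whole number in each library, 10932, 12278 and 17439. Tlr6 took 13.3%, 16.7% and 13.1% of the pair's counts. Levels of Tlr1 and Tlr6 carry the uncertainty of this division, whereas each of the other members was counted in whole reads. No other annotated gene overlapped a member except the antisense gene Gm45542 at Tlr3, which had 1, 0 and 0 counts. Whether counting used strand is not stated, so reads of this pair cannot be assigned with certainty.

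Libraries differed for every receptor that could be tested, and replicate 1 was the highest library for 8 of the 9. Counts scaled to a fixed library total (CPM, scaled by TMM factors) were compared between libraries by a chi-square test for a single rate, with Benjamini-Hochberg adjustment over 12515 genes. It called 9 of 9 members, against 71.4% of all genes tested, and 86.7% of the 5926 genes that averaged 1000 counts or more. Tlr5 fell below the filter on low counts. A call here says that counting error alone does not cover the spread, which holds for most well-counted genes in these libraries, so the calls are not a result about the receptors. Called with replicate 1 above the mean of replicates 2 and 3 were 8 of 9 members, against 35.4% of all genes tested. Called with it below were 1 of 9, against 36.0%. These 2 shares include genes with few counts and were not taken for the 5926 well-counted genes alone. The summed markers of dendritic cells were also highest in replicate 1, with each marker under 1 TPM. So were the sums for macrophages (5256, 4401 and 4817 TPM), B cells (0.1, 0.02 and 0.07 TPM) and fibroblasts (0.11, 0.03 and 0.05 TPM). Those of neutrophils were highest in replicate 2 and those of T and NK cells in replicate 3. By CPM, 3 of 8 macrophage markers were called with replicate 1 higher and 5 with it lower. The 4 plasmacytoid genes summed to 0.57, 0.15 and 0.22 TPM in replicates 1, 2 and 3, and the 5 conventional genes to 0.46, 0.3 and 0.2 TPM. Of 5 such genes above the filter on low counts, 3 were called, each with replicate 1 higher. Ccr9 differed by 2.80 in log2 CPM, Clec9a by 1.20 and Xcr1 by 1.10, while Siglech (0.22) and Zbtb46 (0.40) were not called. Tlr11 and Tlr12, also under 1 TPM, were called with replicate 1 higher too, by 1.16 and 1.015. The part of the dendritic cell markers in the receptor values was not tested. The median over members of replicate 1 minus that mean was 0.36 in log2 CPM, against -0.01 over all genes with an SD of 0.61.

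Tlr3 differed most between libraries, with 185, 97.1 and 106 CPM in replicates 1, 2 and 3, and a difference of 0.86 in log2 CPM between replicate 1 and the mean of the others. Tlr9 had 378, 199 and 282 CPM, a difference of 0.67. Tlr1 followed the same pattern as Tlr9, with 304, 190 and 262 CPM and a difference of 0.45. In Tlr9 and Tlr1 replicate 2 also lay below replicate 3, by 0.51 and 0.46 in log2 CPM, while in the other tested members these 2 libraries lay within 0.16 of each other. Tlr7 and Tlr8 shifted by 0.37 and 0.36, Tlr6 by 0.26, Tlr4 by 0.22 and Tlr13 by 0.18. Tlr2 alone went the other way, with 129, 139 and 155 CPM and a difference of -0.18. For Tlr2 the chi-square test for a single rate (edgeR's TMM factors) gave a Benjamini-Hochberg adjusted p = 5.64e-22. That test covers any difference among the libraries and does not test the direction of replicate 1. The biological coefficient of variation estimated by edgeR, the spread beyond counting error, ran from 0.133 for Tlr6 to 0.252 for Tlr3. Its median was 0.164 over the members, 0.172 over all genes tested and 0.136 over the 5926 genes that averaged 1000 counts or more. Each tested member also averaged 1000 counts or more. Without replicate 1 the median over the members was 0.094. These edgeR values are drawn toward the trend over all genes. Estimated from each gene alone (DESeq2, all libraries), the coefficient ran from 0.081 for Tlr13 to 0.375 for Tlr3, with a median of 0.156.

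**Figure D3:**
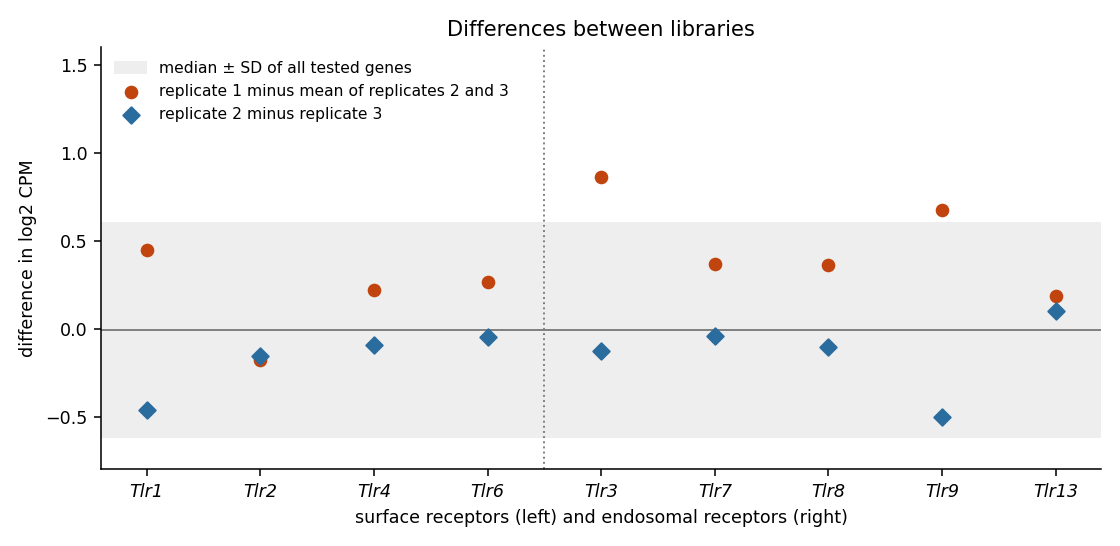
Difference in log2 CPM for the 9 tested receptor genes, replicate 1 minus the mean of replicates 2 and 3 (circles) and replicate 2 minus replicate 3 (diamonds); the grey band is the median ± SD of the first difference over all tested genes. Tlr3 at 0.86 and Tlr9 at 0.67 lie above the band, and Tlr2 at -0.18 is the one circle below the line.

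Most receptor mRNA was of transcripts that carry the full coding sequence. The 10 genes have 38 annotated transcripts, and 8 of 10 genes had the same leading transcript in every library. Tlr2 and Tlr9 have a single annotated transcript. Tlr13-201 took 99.5 ± 0.28% and Tlr4-201 98.2 ± 0.65% of the TPM of their genes. The remaining Tlr13 transcript, Tlr13-202, retains an intron and had 3, 2 and 2 counts in replicates 1, 2 and 3. The full share of Tlr2 and Tlr9 is fixed by their annotation and is not a measurement.

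Tlr1 was divided between Tlr1-201 (61.6 ± 0.46%) and Tlr1-202 (33.7 ± 1.43%), which start 800 bases apart and encode the same protein. Tlr7-201 took 61.8%, 62.2% and 68.8% of Tlr7 TPM, and Tlr7-202 and Tlr7-203, with the same coding sequence, took 12.5 ± 0.72% and 4.12 ± 0.55%. In Tlr8, Tlr8-202 took 50.5 ± 1.46% and Tlr8-201 28.5 ± 0.59%, again with 1 coding sequence. Transcripts with the full coding sequence together held 95.3 ± 1.64% of Tlr1 TPM, 80.9 ± 4.07% of Tlr7 TPM and 79.1 ± 1.54% of Tlr8 TPM. Short transcripts held most of the rest, with Tlr7-205, a partial coding sequence, at 13.5 ± 2.25% of Tlr7, and Tlr8-203 at 9.73 ± 2.14% of Tlr8. By counts the full coding share was 99.2 ± 0.25% in Tlr7 and 98.04 ± 0.25% in Tlr8. Tlr6 combined Tlr6-201 (63.7 ± 1.91%) with Tlr6-202, a transcript of 446 bases with a partial coding sequence, at 36.3 ± 1.91%. Tlr6-202 rested on 45.6, 80.8 and 71.6 expected counts, and by counts rather than TPM the full coding transcript held 96.6 ± 0.46% of Tlr6.

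Tlr3 had the least settled transcript makeup. Tlr3-201 took 39.98%, 28.5% and 38.95% of its TPM in replicates 1, 2 and 3, and Tlr3-205 34.1%, 42.6% and 29.9%. The leading transcript was thus Tlr3-201 in replicates 1 and 3 and Tlr3-205 in replicate 2. Both encode the same protein and differ in the untranslated ends. Transcripts with the full coding sequence together took 74.03%, 71.1% and 69.1% of Tlr3 TPM. Tlr3-206, a single-exon transcript with a shorter coding sequence, held 16.6 ± 0.61%. Tlr5, with 5 to 32 counts, gave a different leading transcript in each library, which is not read further.

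A second deposited table, estimated directly from the reads, gave similar counts and a different division into transcripts. Its counts were 1.05 to 1.17 times those of the alignment table for the 9 members above 1 TPM. Its TPM were lower for every member, and for the median protein-coding gene by 0.47, 1.48 and 1.76 on the log2 scale in replicates 1, 2 and 3. Relative to that median gene the mean shift of a member ran from -0.08 for Tlr2 to 0.21 for Tlr6. Tlr8-201 was at 0 in this table and Tlr8-202 took 69.7 ± 1.77%. Tlr3-205 led Tlr3 in all 3 libraries at 54.9%, 61.8% and 54.8%. Tlr4-204, at 0 counts in the alignment table, took 11.9%, 11.2% and 2.75% of Tlr4 TPM, but 1.4%, 1.37% and 0.31% of Tlr4 counts. Tlr7-202 took 28.6 ± 2.33% of TPM against 12.5 ± 0.72% by alignment. Tlr6-202 took 48.5 ± 4.26% of TPM against 36.3 ± 1.91%, so that it led Tlr6 in replicate 2 at 53.0%. By counts, Tlr6-202 held 5.56 ± 1.04% of Tlr6 in the table made directly from the reads. Tlr4-201 held 85.7%, 86.5% and 96.2% of Tlr4 TPM in this table, and 98.1%, 98.2% and 99.5% of Tlr4 counts. Transcript shares thus depended on the table, for full and for short transcripts. The leading transcript was 1 and the same in every library of the alignment and direct tables for 7 of 10 members.

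**Figure D4:**
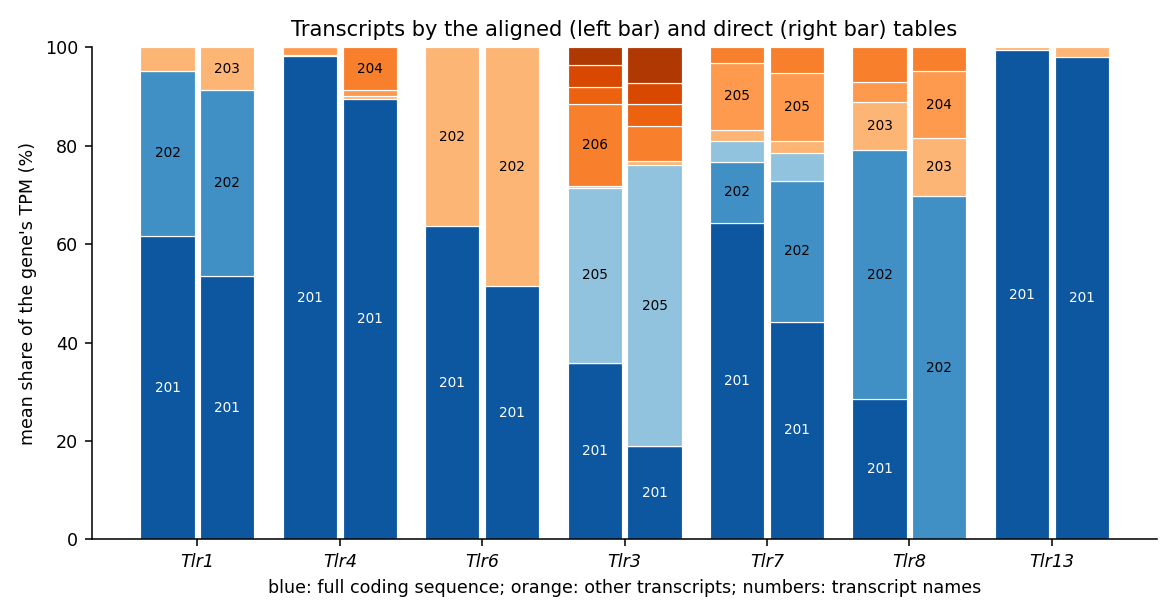
Mean share of each transcript in its gene's TPM over 3 libraries, for the 7 expressed receptors with more than 1 transcript, by the alignment table (left bar) and the table made directly from the reads (right bar). Blue marks transcripts with the full coding sequence and orange the others; Tlr8-201 is at 28.5% in the left bar and at 0 in the right.

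Promoter sequence is shown for 5 members because the levels span silent to abundant genes. RefSeq windows (GRCm38.p6, 250 bases before to 50 after a start) matched 8 of 10 members, and Tlr4 and Tlr7 were not matched. The motif GAGGAA, the core that the macrophage factor PU.1 binds, was searched on both strands. It occurred in windows of Tlr1, Tlr8, Tlr9 and Tlr13, 4 of the 10 windows of these 8 members, and in 28.3% of all 32851 windows. The kappaB consensus, the site of NF-kB, occurred in Tlr2 and Tlr3 and in 4.51% of all windows. The stretches below end just before the most upstream annotated start, and capitals mark GAGGAA, or in Tlr2 overlapping matches of the kappaB consensus.
Tlr1 promoter, chr5:64933564-64933713, minus strand: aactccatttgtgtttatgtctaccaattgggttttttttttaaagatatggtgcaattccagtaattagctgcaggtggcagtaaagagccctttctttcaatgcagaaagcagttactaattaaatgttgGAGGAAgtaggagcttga
Tlr9 promoter, chr9:106222448-106222597, plus strand: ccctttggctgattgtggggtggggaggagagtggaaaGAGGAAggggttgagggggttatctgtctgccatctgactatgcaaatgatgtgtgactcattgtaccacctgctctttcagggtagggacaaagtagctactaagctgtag
Tlr13 promoter, chrX:106143054-106143203, plus strand: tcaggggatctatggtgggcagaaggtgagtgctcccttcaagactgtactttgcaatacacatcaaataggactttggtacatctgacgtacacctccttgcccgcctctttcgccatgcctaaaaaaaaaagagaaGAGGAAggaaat
Tlr5 promoter, chr1:182954638-182954787, plus strand: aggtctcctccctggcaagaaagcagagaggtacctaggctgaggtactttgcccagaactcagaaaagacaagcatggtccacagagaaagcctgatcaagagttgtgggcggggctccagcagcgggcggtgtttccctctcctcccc
Tlr2 promoter, chr3:83841768-83841858, minus strand: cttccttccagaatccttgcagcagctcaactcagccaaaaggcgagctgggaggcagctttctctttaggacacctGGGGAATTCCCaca
GAGGAA begins at -23 in Tlr1, -112 in Tlr9 and -83 in Tlr13 relative to the RefSeq start. In Tlr8 it is on the opposite strand, as is a further match in Tlr9 that begins at 13. Neither motif occurred in the Tlr5 window or in the windows of Tlr6, which averaged 11.05 TPM. Neither occurred in the other window of Tlr1, which holds the start of Tlr1-201, the leading Tlr1 transcript. These are letters in a window and show no binding, and the levels were not tested against them.

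Genes that fold, move and cut the receptors were broadly expressed. Of 11 trafficking and folding genes all 11 were above 1 TPM in every library. Unc93b1, the escort of endosomal receptors out of the endoplasmic reticulum, led them at 286, 220 and 259 TPM. Hsp90b1, the chaperone gp96 that most family members need to fold, had 113, 105 and 133 TPM, and Rab7b, a small GTPase of late endosomes, 71.8, 54.2 and 51.5 TPM. Each of these 3, named as the highest of the list, stood above the median receptor. Over all 11 genes the median was 32.6 TPM and the lowest 2.17 TPM, so this does not hold for the list as a whole. Endosomal proteases, some of which trim Tlr7 and Tlr9, reached higher levels still, with Ctsb at 2295 ± 279, Ctss at 1354 ± 249 and Lgmn at 726 ± 76.8 TPM, while Ctsk stayed under 1 TPM at 0.8 ± 0.226. Of 9 nucleic acid processing genes found, all 9 were above 1 TPM in every library, led by the endolysosomal transporter gene Slc15a3 (213 ± 33.8 TPM) and the exonuclease genes Pld4 (177 ± 38.7 TPM) and Pld3 (167 ± 9.38 TPM).

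Genes listed for the surface receptors were less uniform, though such counts depend on which genes were put on each list. Above 1 TPM in every library were 6 of 9 genes listed as co-receptors or accessory proteins, not all of which are established partners of the receptors. Cd180, a relative of Tlr4 that lacks the TIR domain, had 311, 225 and 188 TPM, and Ly86, which binds it, 138, 80.8 and 83.4 TPM. Cd14, the endotoxin carrier at the membrane, had 51.6, 43.2 and 61.3 TPM. Lbp stayed at 0.667 ± 0.146 TPM, and Pigr and Vnn1 were listed at 0, which allows up to 0.0419 and 0.049 TPM (3 counts). Among 6 adaptor genes Pik3ap1, an adaptor to phosphoinositide 3-kinase, was highest at 341, 234 and 253 TPM. Myd88, the adaptor of all members but Tlr3, had 59.3, 41.2 and 44.2 TPM, and Ticam2, which links Tlr4 to Ticam1, 13.8, 10.2 and 10.7 TPM. Sarm1 was under 1 TPM, at 0.01, 0.01 and 0.02 TPM.

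Differences between libraries in these lists did not run one way. Called with replicate 1 higher and lower were 3 and 5 of 11 trafficking genes, 3 and 3 of 6 proteases, 6 and 3 of 9 nucleic acid processing genes, 4 and 3 of 7 co-receptor genes tested, and 4 and 1 of 5 adaptors tested. Over all genes tested these shares were 35.4% higher and 36.0% lower. The median difference in log2 CPM, replicate 1 minus the mean of replicates 2 and 3, was -0.04, 0.01, 0.14, 0.09 and 0.22 for these lists in the same order, beside 0.36 for the receptors.

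**Figure D5:**
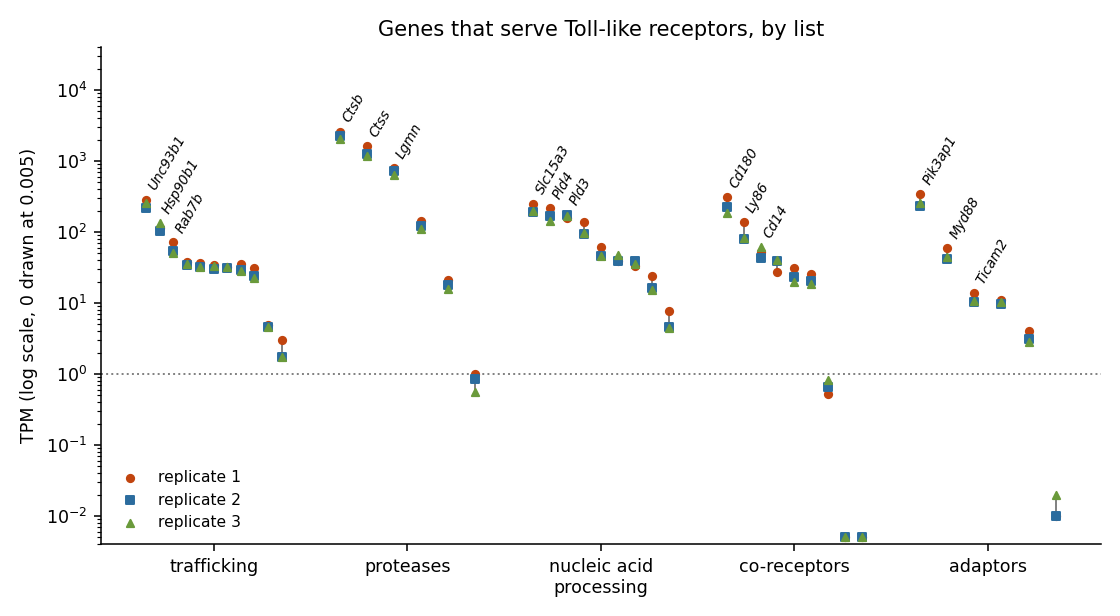
TPM (log scale) of genes listed as serving the receptors, in 5 lists. Each gene is drawn as a column of 3 symbols for the libraries, ordered by mean TPM. The 3 highest genes of each list are named and 0 is drawn at 0.005. Protease genes reach 2295 TPM on average for Ctsb, and 5 genes in all lie under the dotted line at 1 TPM.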

How the data were processed

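RNA was measured in 3 libraries of 1 group, from 1 µg of RNA each with inserts of 250 to 400 bases, per the labels. The authors deposited expected counts (estimated counts that need not be whole) and TPM per gene and transcript, made from alignments to mm10 with GENCODE M21, per the deposited notes. The deposited share of a transcript is in percent of the TPM of its gene. Interval bounds of TPM, a never-negative signal per the file headers, were not used for any statement. A further deposited transcript table holds estimated counts and TPM made directly from the reads. The notes name no tool version, strand setting or filter. TPM is scaled over all entries, so the share taken by other RNAs moves every receptor's TPM.

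Members and gene lists were chosen with earlier results of these data known. All 10 members are named, and of each list the 3 highest by mean TPM and any gene under 1 TPM in every library. Entries naming no gene held 0.435%, 0.134% and 0.0823% of counts in replicates 1, 2 and 3 and stayed out of tests. Expected counts were rounded and filtered with edgeR 4.0.16 in R 4.3.3 (TMM, prior count 2), with a chi-square test per gene and Benjamini-Hochberg adjustment at 0.05. DESeq2 1.42.0 was an alternative. The chi-square step was tested on simulated data. Coding sequences were compared by global alignment (Biopython 1.88) in place of proteins. The box pattern was widened after it had missed Tlr1 and Tlr6. Of the 10 symbols listed for nucleic acid processing, 9 were found.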

Additional observations from a re-analysis of the deposited data

How the results depend on the processing

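The count of receptors above 1 TPM (9) was the same by the direct table, rescaled TPM, posterior mean TPM, 0.5 TPM, 5 TPM, at least 10 counts and without each library. The log2 ratio of surface over endosomal TPM was negative under each alternative, from -1.53 without the highest member of each class to -0.72 without Tlr13, and from -1.15 to -1.03 without 1 library. Separated neighbours numbered 3, and 3 to 5 without 1 library, the 5 without replicate 1. Genes varying beyond counting error numbered 8935, and 5126 to 7667 without 1 library. The lowest count, without replicate 1, was 40.4% of genes tested, with 9 of 10 members called, and without replicate 2 or 3 9 of 9 members were called, against 58.2% and 61.5% of genes. Without a filter on low counts 10 of 10 members were called, Tlr5 included, against 53.9% of genes. The members' median biological coefficient of variation was 0.164, and 0.094 to 0.206 without 1 library, lowest without replicate 1. The causes were not tested. The median difference of replicate 1 ran from 0.26 (direct counts) to 0.37 (RLE factors). Members with 1 leading transcript in every library were 8, and 8 to 9 without 1 library. The direct table moved the mean TPM of 10 members and the leading share of 7 by more than 1 SD. No paired analysis was possible because the series holds 1 group. Depth limits Tlr5, at 5 to 32 counts.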
